A study of Mus musculus with 12 samples.

Results

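The spread between replicate kidneys was measured gene by gene within each of 4 groups of Pod-TRECK mice, using every count column of the deposited table, 12 of 12 libraries. In Pod-TRECK mice the podocytes, epithelial cells of the glomerular filter, bear a receptor for diphtheria toxin, to which mouse cells are otherwise resistant. All groups shared this genotype. Control mice received no treatment, and the other mice received 100 ng of diphtheria toxin into the peritoneum, with kidneys taken 5, 14 or 21 days later, 3 per group. The labels give no age, sex or strain, they give no control treated with vehicle, and they do not say whether whole kidneys were freed of surrounding tissue or of blood. All libraries carried 1 batch label and were made from poly(A)-selected RNA.

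Whole kidney RNA mixes nephron epithelium with vessels, blood, immune cells and whatever lies against the organ: perirenal and brown fat, the renal pelvis lined by urothelium, and muscle of the body wall. Transcripts that only a small attached tissue makes can differ widely between samples of the same treatment. The nephron's own transcripts range from those of podocytes, which are few, to those of the proximal tubule, which makes up most of the cortex. In such bulk samples, fewer cells of a type and less RNA per cell cannot be told apart.

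Libraries held 31023852 to 46420299 counts, and 19821 of 56722 genes had enough counts to be kept. Values are CPM, counts scaled to a common library size with TMM factors, which correct for differences in composition, and the spread is the SD of log2 CPM over the 3 libraries of a group (n = 3, with a prior count of 2). TMM factors were 0.7784 to 0.8016 in controls, 0.8569 to 0.8931 at day 5 and 1.314 to 1.315 at day 14, and 1.189, 0.8889 and 1.245 in day 21 replicates 1, 2 and 3. All 11 kidney marker genes, among them Umod of the thick ascending limb and Cdh16 of tubule epithelium, were kept. Xist had 1 to 3 counts in every library and Ddx3y of chromosome Y 1734 to 2593, so no library stood apart by sex. Day 21 replicate 2 did stand apart from its group, and for the gene lists described at day 21 the spread between replicates 1 and 3 is given as well. At equal spread an SD of 2 libraries is typically smaller than an SD of 3, so these values are not on the same scale.

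The groups differed in their spread. The median SD over genes was 0.1386 among control libraries, 0.1157 at day 5, 0.09718 at day 14 and 0.3317 at day 21. An SD over 1 was found for 267 genes in controls, 1.35% of all kept genes, for 211 at day 5 (1.06%), 307 at day 14 (1.55%) and 1736 at day 21 (8.76%). Among the 13967 genes whose log2 CPM averaged 1 or more, such genes numbered 41 (0.294%), 37 (0.265%), 76 (0.544%) and 648 (4.64%) in the same order of groups. The biological coefficient of variation estimated by edgeR from each group alone, which takes counting noise into account, was 11.2% for control mice, 9.914% at day 5, 11.81% at day 14 and 38.64% at day 21.

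**Figure D1:**
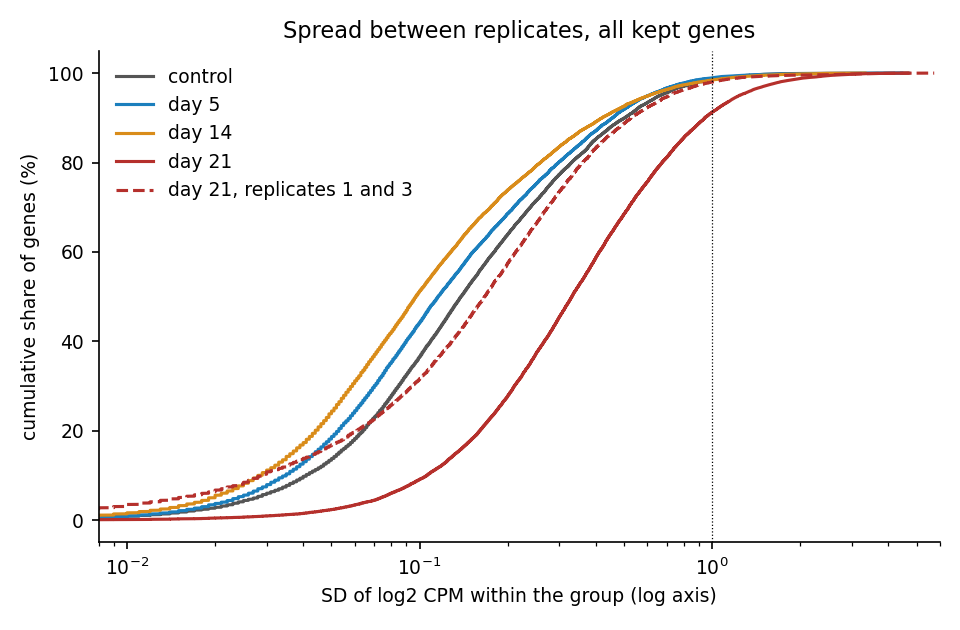
Cumulative share of the 19821 kept genes (vertical axis, %) at or below a given SD of log2 CPM within a group (horizontal log axis), 1 line per group of 3 libraries, and a dashed line for day 21 replicates 1 and 3 alone. The dotted vertical line marks an SD of 1. The day 21 line lies to the right of the others, with a median of 0.3317. The dashed line, with a median of 0.1671, rests on 2 libraries and is not on the scale of the lines of 3. Pairs of control libraries have medians of 0.09918 to 0.1226.

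A single library accounted for most of the day 21 spread. Day 21 replicate 2 was the library farthest from its group mean for 1434 of the 1736 genes (82.6%), and it was the high library for 735 of them and the low one for 699. Between day 21 replicates 1 and 3 the median SD was 0.1671, and it was 0.3307 between replicates 1 and 2 and 0.333 between 2 and 3. The biological coefficient of variation at day 21 was 20.75% without replicate 2. Of the 1736 genes, 285 (16.4%) kept an SD over 1 between replicates 1 and 3.

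Elsewhere no library took such a share. Day 14 replicate 3 was farthest for 188 of 307 genes (61.2%) and low for 133 of these. In controls replicate 3 was farthest for 106 of 267 genes, replicate 2 for 96 and replicate 1 for 65. At day 5 replicates 1 and 2 were farthest for 86 and 87 of 211 genes.

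Day 14 replicates 1 and 2 were the closest pair of libraries in the study. Their median SD was 0.06099, and the chi-square of their counts per degree of freedom was 4.791, against 11.52 to 19.63 for the other pairs outside day 21. Their counts therefore differed by more than sampling noise. This does not show that they came from separate kidneys, since repeat libraries of the same kidney can also exceed sampling noise. They were kept as separate replicates on their labels. Without day 14 replicate 3 the biological coefficient of variation of the group was 6.036% and 145 genes had an SD over 1. Without replicate 2 these values were 16.66% and 518.

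**Figure D2:**
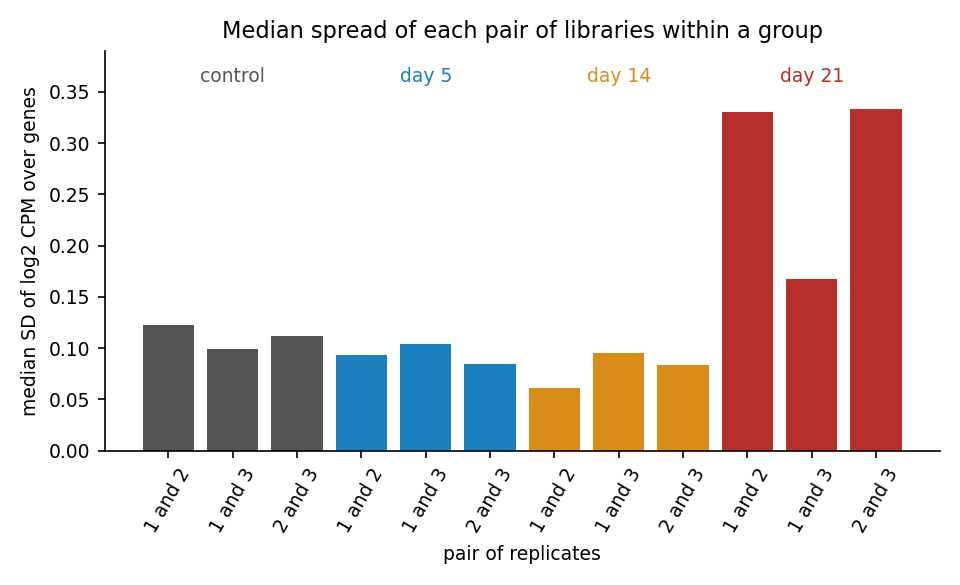
Median SD of log2 CPM over 19821 genes (vertical axis) for each of the 12 pairs of libraries within a group (horizontal axis, replicate numbers), coloured by group. Pairs outside day 21 lie between 0.06099 and 0.1226, and only the pair of day 21 replicates 1 and 3, at 0.1671, comes near them.

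The spread depended on abundance. Below a mean log2 CPM of 0 the median SD was 0.3821 in controls, 0.3629 at day 5 and 0.3041 at day 14. These values were 0.91, 0.9 and 0.921 times the Poisson SD, an estimate of what counting alone gives on this scale. The day 21 libraries had 0.5737 in this band, or 1.56 times their Poisson value. An SD of 3 libraries typically lies below the true SD, and the Poisson SD is rough at such low counts. Ratios under 1 therefore do not show a spread below counting noise. At a mean of 8 and above, the median SD was 0.07507, 0.07474, 0.05409 and 0.4536 in controls and at days 5, 14 and 21, or 6.73, 6.79, 4.4 and 36.1 times the Poisson value. Differences between kidneys thus exceeded counting error most clearly in the abundant genes, and no gene in that band had an SD over 1 outside day 21, where 57 of 396 did.

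Genes of fat tissue varied in all 4 groups, and the high library was not that of the same replicate number in each. The list of white and brown adipose genes had a median SD of 1.44 in control kidneys, 2.59 at day 5, 2.22 at day 14 and 2.81 at day 21. Of its members 13 of 13 were measured, and 9, 9, 10 and 11 had an SD over 1. Over all genes 1.35%, 1.06%, 1.55% and 8.76% did. Adipoq (chromosome 16, positions 22965286 to 22976778 of GRCm39), which encodes the adipocyte hormone adiponectin, had 4.78, 15.9 and 1.91 CPM in control replicates 1 to 3, 0, 23.5 and 2.24 CPM at day 5, 49.5, 50.3 and 2.8 CPM at day 14, and 0.315, 1.35 and 30.6 CPM at day 21. The high libraries were control 2, day 5 replicate 2, day 14 replicates 1 and 2, and day 21 replicate 3, and the ranges of all 4 groups overlapped. The SDs of Adipoq were 1.52, 4.44, 2.38 and 3.27.

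Other adipocyte genes followed the same libraries. Cfd, which encodes the secreted protease adipsin, had 36.6, 89.2 and 11.1 CPM in controls, 0.198, 107 and 14.3 CPM at day 5, 347, 345 and 15 CPM at day 14, and 1.28, 5.84 and 250 CPM at day 21. Its SDs were 1.51, 4.45, 2.61 and 3.89. Plin1 and Cidec, whose proteins coat the lipid droplet, had SDs of 1.44 to 3.81 and 1.45 to 3.46 over the groups. Pnpla2, a lipase made in many tissues, had SDs of 0.04, 0.33, 0.66 and 0.3. Within day 14 the agreement of replicates 1 and 2 extended to this tissue, with a median SD of 0.0245 over the 13 genes, and replicate 3 was the lowest library for all 13.

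Ucp1, the uncoupling protein of brown fat, did not follow Adipoq in every library. It had 0.712, 25.9 and 3.86 CPM in controls, 0.198, 8.95 and 1.25 CPM at day 5, 0.598, 0.442 and 0.195 CPM at day 14, and 0, 0.514 and 0.259 CPM at day 21. Control replicate 2 and day 5 replicate 2 were thus high in both genes, while the 3 libraries with the most Adipoq, day 14 replicates 1 and 2 and day 21 replicate 3, had 0.598 CPM of Ucp1 or less. The SD of Ucp1 was 2.54 in controls and 0.72 at day 14.

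Only 34 genes had an SD over 1 in every group, and 10 of these averaged a log2 CPM of 1 or more. Besides Adipoq, Cfd, Plin1 and Cidec they were Plin4, a further lipid droplet gene, Hp, which encodes the haemoglobin-binding protein haptoglobin, the small nucleolar RNA gene Snora31, the pseudogene Cyp4b1-ps2, and the predicted genes Gm41041 and Gm12431. Hp had 2.79, 6.96 and 1.08 CPM in controls, 0.726, 11.4 and 4.08 CPM at day 5, 69.8, 67 and 8.62 CPM at day 14, and 8.55, 0.77 and 155 CPM at day 21, so that its highest libraries were those of Adipoq. Snora31 did not follow Adipoq, with 7.65, 0.572 and 0.525 CPM in controls and 0.868, 11.6 and 0.925 CPM at day 14. A further 42 genes had an SD over 1 in 3 groups, 186 in 2 and 1887 in 1, while 17672 had it in none. Counts of Snora31 and of pseudogenes may be shared with host or parent genes, since how such reads were treated is not stated in the sources used.

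**Figure D3:**
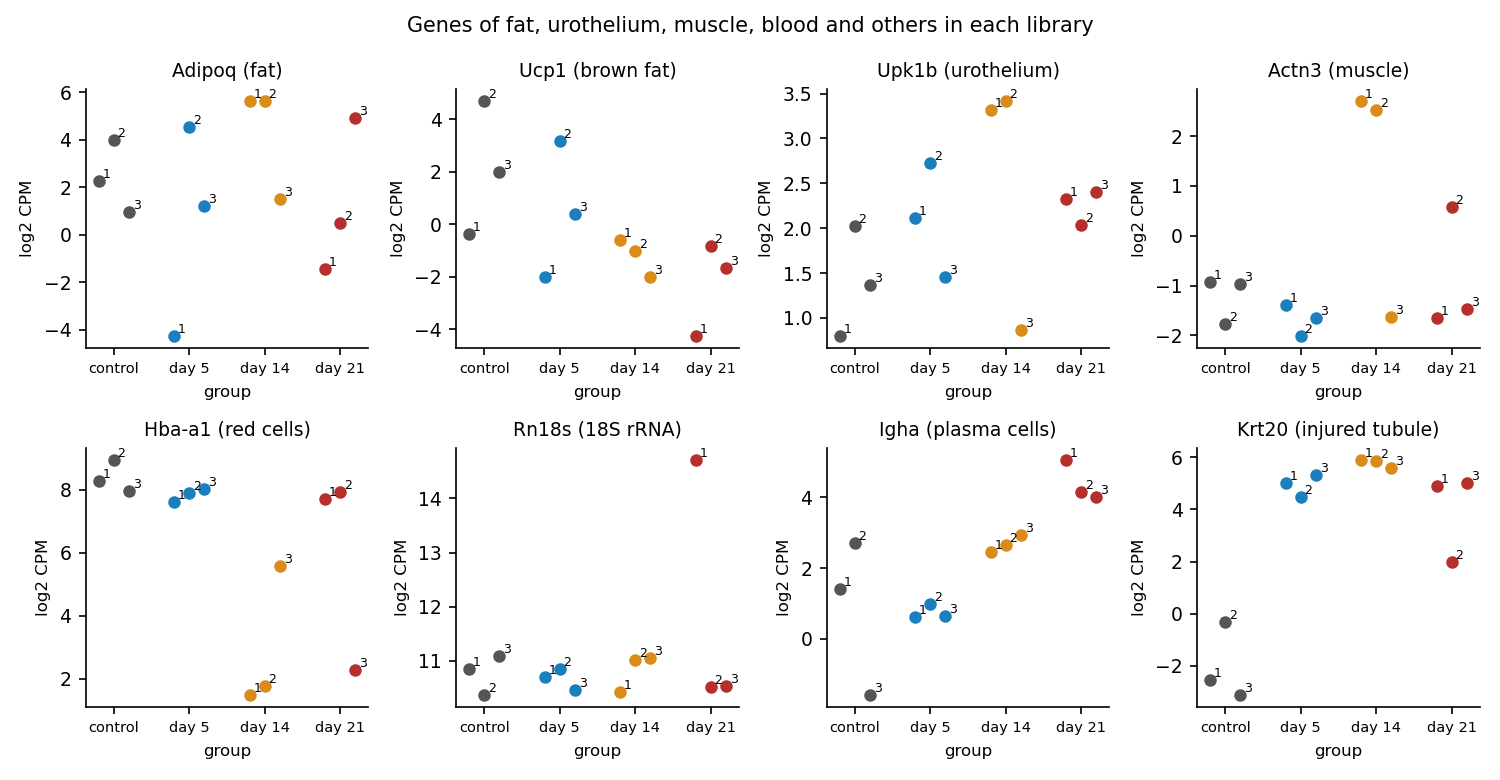
Log2 CPM (vertical axes, each panel with its own range) of 8 genes in each library, by group (horizontal axes). Points are libraries with their replicate numbers, and no means or errors are drawn. Adipoq is high in 1 library of each group except day 14, where replicates 1 and 2 are high, Hba-a1 is low in day 14 replicates 1 and 2 and day 21 replicate 3, and Rn18s is high in day 21 replicate 1.

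Red cell transcripts varied at days 14 and 21 and much less in the other groups. Of the erythroid list 8 of 10 genes were measured. Their median SD was 0.505 in control kidneys, 0.202 at day 5, 1.84 at day 14 and 3.01 at day 21. An SD over 1 was found for 0, 0, 5 and 5 members, against 1.35%, 1.06%, 1.55% and 8.76% of all genes. The alpha globin gene Hba-a1 (chromosome 11, positions 32233511 to 32234465) had 312, 495 and 247 CPM in controls, 196, 240 and 261 CPM at day 5, 2.74, 3.34 and 48.1 CPM at day 14, and 210, 244 and 4.82 CPM at day 21. The low libraries were day 14 replicates 1 and 2 and day 21 replicate 3, and these were also the 3 libraries highest in Adipoq. Its SDs were 0.51, 0.21, 2.29 and 3.2. Hba-a2, Hbb-bs and Hbb-bt, the other adult globin genes, had SDs of 1.95 to 2.32 at day 14 and 3.16 to 3.19 at day 21. Reads of Hba-a1 and Hba-a2, which are near-identical copies, cannot be assigned with certainty.

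Alas2, the haem synthesis enzyme of red cell precursors, followed the globins with 0.0772, 0.0245 and 0.706 CPM at day 14 and 2.78, 3.34 and 0.047 CPM at day 21. Slc25a37, an iron carrier of mitochondria, and Bpgm, a red cell glycolytic enzyme, did not, with SDs of 0.01 to 0.27 in all groups. The globin genes and Alas2 thus moved together, apart from these genes of the same list.

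Urothelial and muscle genes added to the spread at day 14, with replicate 3 low. Upk1b, which encodes a plaque protein of the bladder and pelvis lining, had 9.91, 10.7 and 1.78 CPM at day 14 (SD 1.44), and 1.69, 4.01 and 2.53 CPM in controls (SD 0.61). Of the 13 urothelium and pelvis genes, 5 had an SD over 1 at day 14, against 1.55% of all genes. Replicate 3 was the lowest library for all 13. Actn3, the alpha-actinin of fast muscle fibres, had 6.48, 5.72 and 0.268 CPM at day 14 (SD 2.46). Ckm, the muscle creatine kinase, had 418, 300 and 0 counts in day 14 replicates 1 to 3 and at most 2 counts in any other library. So the muscle transcripts, too, were shared by day 14 replicates 1 and 2. Of the 14 muscle genes listed, 6 were measured, and one of these, Pvalb, is also made by the distal convoluted tubule.

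Defining genes of other neighbouring organs were near 0 throughout. Th and Dbh, the catecholamine enzymes of the adrenal medulla, had at most 2 and 4 counts in a library. Cyp21a1, Cyp11b1 and Cyp11a1 of the adrenal cortex had at most 6, 5 and 3 counts. For the exocrine pancreas, Prss2 had at most 2 counts and Cpa1 had 0 in every library. These counts were too low to show either organ in any kidney.

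In controls the widest list after fat was that of B and plasma cells, which make antibodies. Of 11 B and plasma cell genes measured, with a median SD of 0.896, 5 had an SD over 1, against 1.35% of all genes. Control replicate 3 was the lowest library for 10 of the 11. Igha, the constant region of immunoglobulin A, had 2.61, 6.51 and 0.278 CPM (SD 2.21). Igkc, the constant region of the kappa light chain, had 2.31, 4.28 and 0.494 CPM (SD 1.54). Jchain, which joins immunoglobulin A and M into polymers, had 1.04, 1.93 and 0.247 CPM (SD 1.39). At day 14, where the list's genes summed to 49.4 to 57.5 CPM, the SDs of these 3 genes were 0.23, 0.09 and 0.18. The 22 cell cycle genes had a median SD of 0.508, and replicate 3 was the lowest control for 21 of them. Ccnb1, the mitotic cyclin B1, had 1.72, 0.904 and 0.401 CPM (SD 0.98).

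Heat shock and clock genes also differed between controls. Of 12 heat shock genes, with a median SD of 0.332, replicate 2 was the highest control for 11 and replicate 1 the lowest for 11, and replicates 2 and 3 were the closest pair, with a median SD of 0.159. Hsph1, a cytosolic chaperone, had 92.2, 204 and 140 CPM (SD 0.57). Of 17 clock genes, with a median SD of 0.319, replicate 3 was highest for 12 and replicate 2 lowest for 12. The 2 with an SD over 1, against 1.35% of all genes, ran otherwise, with replicate 2 high. Arntl, the clock activator also called Bmal1, had 1.28, 4.13 and 1.11 CPM (SD 1.01), and Nfil3, a clock output repressor, had 1.16, 6.63 and 1.98 CPM (SD 1.26). Dbp, a clock output gene that peaks in the opposite phase, had 111, 71 and 130 CPM (SD 0.45), with replicate 2 low, as in most of the list. Cry1, a clock repressor, had 2.97, 2.11 and 5.37 CPM (SD 0.67), with replicate 3 high. The cause of this spread was not tested.

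Other control genes stood out singly. Ly6i, a member of the Ly6 surface protein family, had 0.148, 15.7 and 0.154 CPM (SD 3.62), and it also varied at day 5, with 4.29, 1.03 and 0.193 CPM (SD 2.07), and at day 14, with 8.99, 35.7 and 66.6 CPM (SD 1.47). Because Ly6 genes resemble each other, reads may be split between them. Erdr1 had 67.3, 8.26 and 11.3 CPM (SD 1.63), with replicate 1 high.

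At day 5 genes of cell division and of the matrix were lowest in replicate 1. The 22 cell cycle genes had a median SD of 0.47, and replicate 1 was lowest for all 22. Mki67, which encodes the proliferation marker Ki-67, had 47.2, 87.2 and 105 CPM (SD 0.6). Replicate 1 was also lowest for all 22 extracellular matrix genes, with a median SD of 0.361, among them Col1a1, a chain of type I collagen, at 35.8, 50.4 and 60.9 CPM (SD 0.39). None of the cell cycle or matrix genes reached an SD of 1, and what they shared was the library that was low. Some other lists shared it too: replicate 1 was lowest for 13 of 13 adipose and 13 of 14 endothelial genes. It was lowest for 0 of 13 mitochondrial and 4 of 22 proximal tubule genes. Single genes went other ways: Klk1b27, a kallikrein with many close relatives, had 16, 1.34 and 7.29 CPM (SD 1.8), and the pseudogene Smt3h2-ps4 had 37.4, 35.5 and 4.92 CPM (SD 1.66).

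Genes of injury, macrophages, matrix and cell division had their smallest median SD at day 14, as did all genes together. Median SDs were 0.0651 for 20 macrophage genes, 0.066 for 22 cell cycle genes, 0.0705 for 22 extracellular matrix genes and 0.102 for 20 tubular injury genes. Lcn2, the injury protein NGAL, had 478, 492 and 506 CPM (SD 0.04). Havcr1, the injury molecule KIM-1, had 614, 618 and 672 CPM (SD 0.07). The median SD of all genes in that group was 0.09718, so the injury list lay slightly above it and the other lists below. These lists also held more counts at day 14 than in controls, which lowers counting noise. Macrophage genes summed to 1120 to 1150 CPM, against 97.9 to 131 CPM in controls. For Lcn2 the Poisson SD was 0.16 in controls and 0.0098 at day 14. How much of the small spread this accounts for was not tested. Hsd3b1, a steroid dehydrogenase, was a gene by which replicates 1 and 2 differed, with 0.444, 4.71 and 5.84 CPM (SD 1.98).

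**Figure D4:**
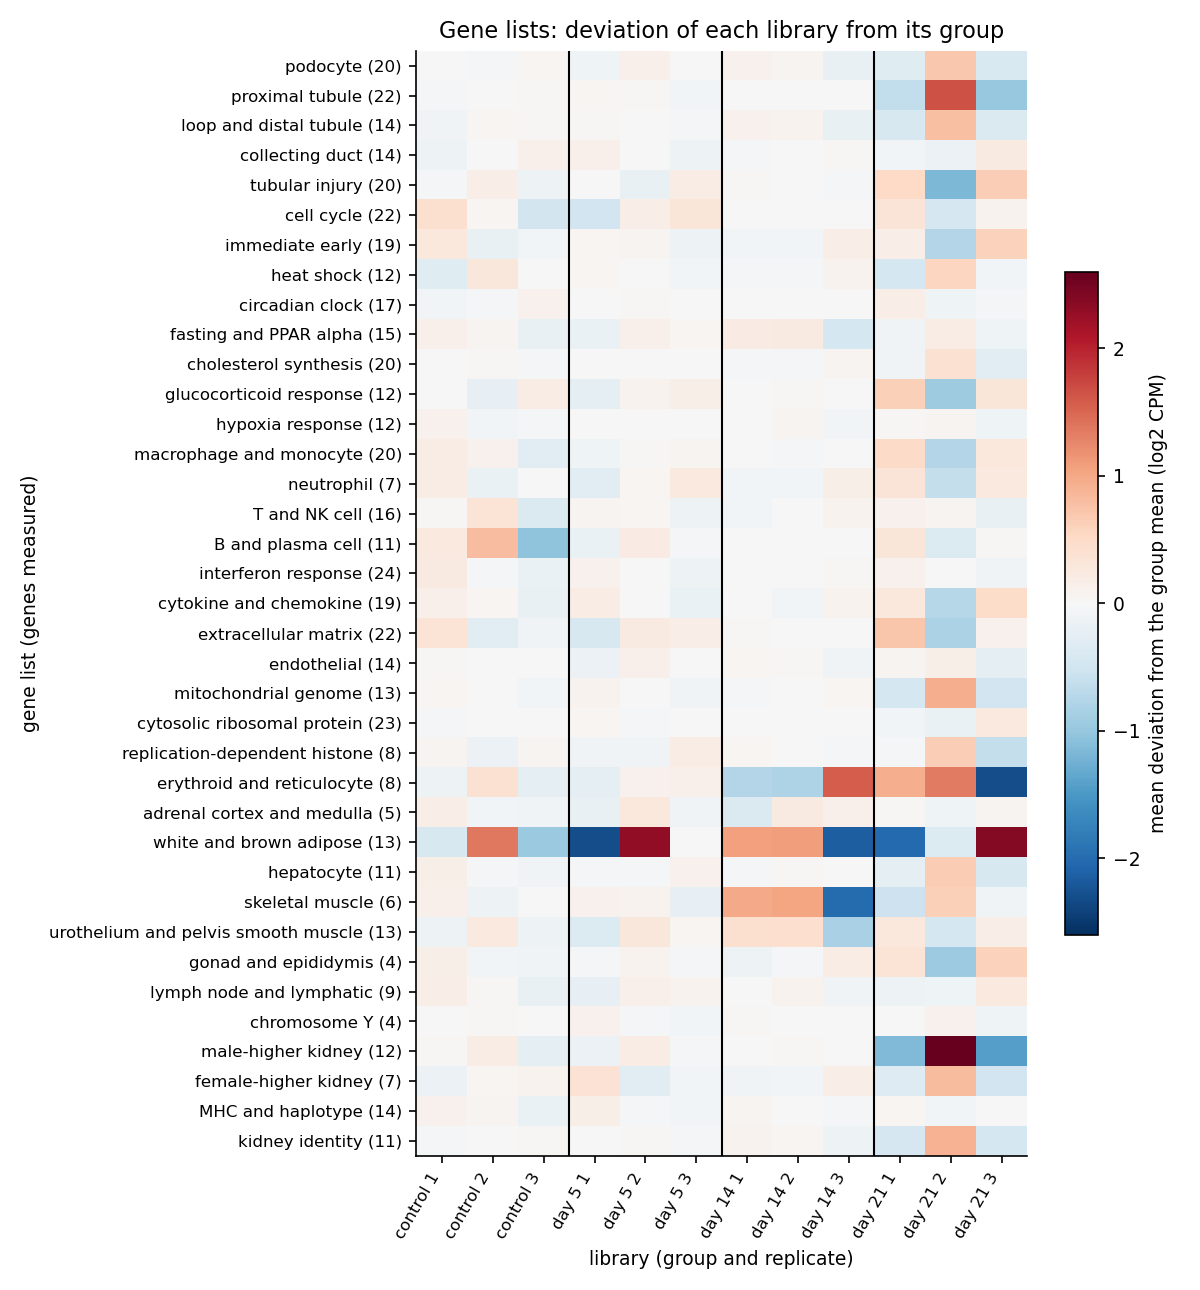
Mean deviation of a list's genes in each library from the mean of the library's own group (colour, log2 CPM) for gene lists with at least 4 measured members (rows, number measured in brackets) in the 12 libraries (columns, black lines between groups). Some genes stand in more than 1 list. Adipose genes reach -2.31 and 2.31 at day 5, and proximal tubule and male-higher kidney genes reach 1.65 and 2.59 in day 21 replicate 2.

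At day 21 replicate 2 was high in genes of the proximal tubule, the segment that reabsorbs most of the filtrate, and low in injury genes. Of 22 proximal tubule genes, 16 had an SD over 1, against 8.76% of all genes, and replicate 2 was the highest library for all 22. Here and below, such counts are given without the share over all genes. Replicate 2 was farthest for 82.6% of the day 21 genes with an SD over 1, high for 735 and low for 699. It can therefore be highest or lowest for many genes of any list. The median SD of the list was 1.22 over the 3 libraries. By pairs it was 0.279 between replicates 1 and 3, 1.37 between 1 and 2, and 1.64 between 2 and 3. Slc22a7 (chromosome 17, positions 46743109 to 46749383), an organic anion transporter, had 0.17, 43 and 0.188 CPM (SD 4.35). Slc7a13, an amino acid transporter of the late proximal tubule, had 2.18, 326 and 1.74 CPM (SD 4.25), and Lrp2, the endocytic receptor megalin, had 298, 1440 and 272 CPM (SD 1.35). In replicates 1 and 3 these values lay close together, with SDs of 0.08, 0.22 and 0.09.

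Kidney genes that are more abundant in male mice, most of them made by the proximal tubule, had a larger spread still, with replicate 2 highest for all 12. Of 12 such genes 10 had an SD over 1, against 8.76% of all genes. The median SD was 2.29, and 0.201 between replicates 1 and 3. Kap, an androgen-regulated protein of the tubule, had 637, 16100 and 420 CPM (SD 2.88). Slco1a1, an organic anion transporter, had 2.95, 143 and 0.776 CPM (SD 3.87). Cyp7b1, a sterol hydroxylase, had 6.22, 103 and 6.7 CPM (SD 2.3). Slc7a13 and Cyp2e1 belong to both of these lists. High values in replicate 2 were not limited to male-higher genes. Of 7 genes more abundant in female kidneys, 3 had an SD over 1, against 8.76% of all genes. The median SD of the 7 was 0.513, and 0.164 between replicates 1 and 3. Among the 3 was Cyp2a4, a steroid hydroxylase, at 13.8, 250 and 8.72 CPM (SD 2.62). Replicate 2 was the highest library for 4 of the 7 and the lowest for the other 3.

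Transcripts of the mitochondrial genome, which are abundant in tubule cells, were highest in replicate 2 for all 13 genes. Their median SD was 0.81 and 0.0889 between replicates 1 and 3. Of 14 loop and distal tubule genes, replicate 2 was the highest library for 12. The list's median SD was 0.513, against 0.332 for all genes, and 0.205 between replicates 1 and 3. An SD over 1 was found for 2 of the 14, against 8.76% of all genes. Egf, made by the distal convoluted tubule, had 48.1, 611 and 37.7 CPM (SD 2.22), and Pvalb had 0, 14.4 and 0.0235 CPM (SD 4.53). Collecting duct genes differed from these, with replicate 2 lowest for 10 of 14 and highest for 2. Their median SD was 0.461, and 0.197 between replicates 1 and 3. Hsd11b2, a cortisol-inactivating enzyme, had 162, 92.4 and 243 CPM (SD 0.7), with replicate 2 low. Slc4a1, the only gene of the list with an SD over 1, went the other way, at 10.6, 50.6 and 13.1 CPM (SD 1.22). Alb, the albumin gene, which the kidney makes at a low level, had 0.218, 4.3 and 0.447 CPM (SD 2.11).

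Podocyte genes split at day 21. Of 20 measured, 4 had an SD over 1, and all 4 were highest in replicate 2. Over all genes at day 21, 8.76% had an SD over 1. The median SD of the podocyte list was 0.362, near the 0.332 of all genes. Between replicates 1 and 3 it was 0.136, against 0.1671 for all genes. Of the 4 genes, Nphs1 (chromosome 7, positions 30157740 to 30186648), which encodes nephrin of the slit diaphragm, had 0.412, 16.5 and 0.517 CPM (SD 2.9). Cdkn1c, a cell cycle inhibitor of mature podocytes, had 4.41, 27.5 and 6.42 CPM (SD 1.39), and Ptpro, a receptor phosphatase, had 2.64, 11 and 2.37 CPM (SD 1.23). Others of the list varied little, such as Synpo, which encodes the foot process protein synaptopodin (SD 0.23), and Actn4, an actin crosslinker (SD 0.1).

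Injury genes ran the opposite way. Replicate 2 was the lowest library for all 20 tubular injury genes, of which 10 had an SD over 1, against 8.76% of all genes. The median SD was 0.935, against 0.332 for all genes, and 0.204 between replicates 1 and 3. Lcn2 had 578, 93.8 and 556 CPM (SD 1.5), Timp1, an inhibitor of matrix proteases, 34.7, 4.82 and 34 CPM (SD 1.63), and Serpina3n, a protease inhibitor of the acute phase, 31.1, 2.28 and 39.1 CPM (SD 2.26). Havcr1 was an exception in size, with 160, 130 and 134 CPM (SD 0.16). Replicate 2 was also lowest for 18 of 20 macrophage genes, with a median SD of 0.708, and 0.164 between replicates 1 and 3. It was lowest for 19 of 22 matrix genes, with a median of 0.68, and 0.493 between replicates 1 and 3, among them Col1a1 at 168, 38.8 and 117 CPM (SD 1.1). From the labels an unequal effect of the toxin and an exchanged sample cannot be told apart, so the day 21 values that include replicate 2 rest on its label as given.

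**Figure D5:**
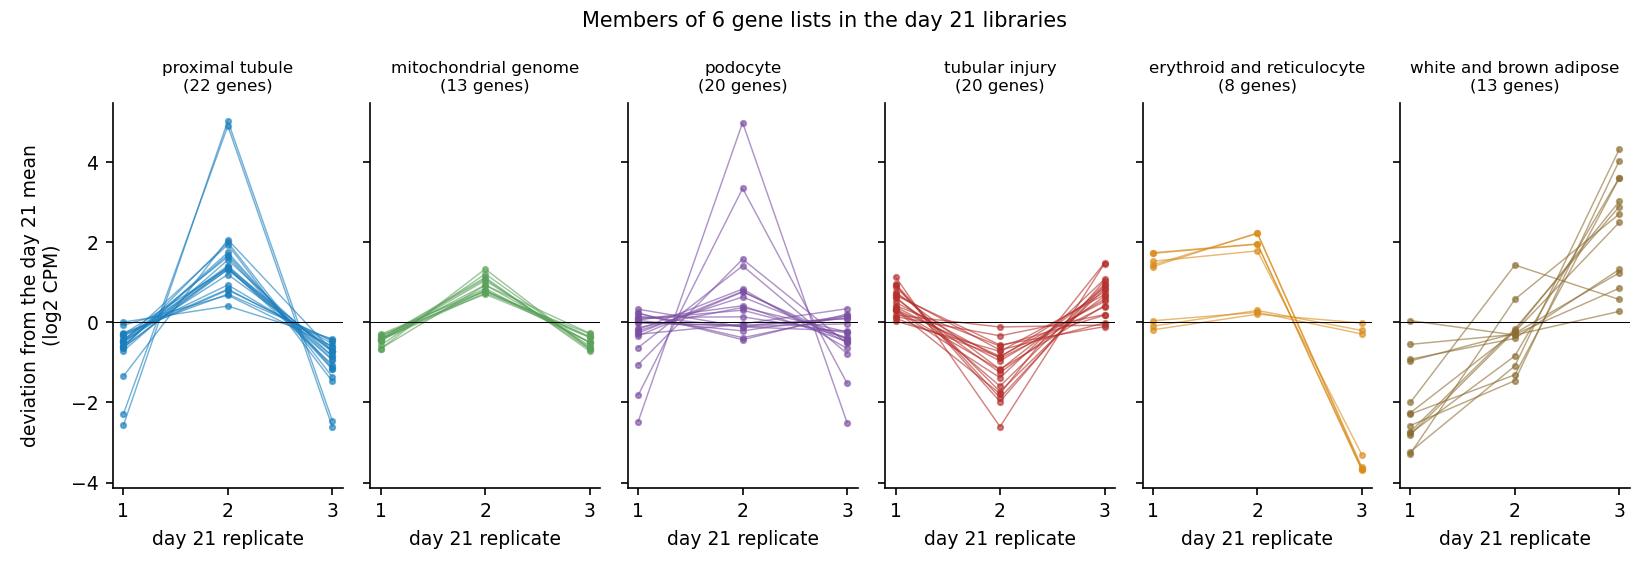
Deviation of each gene from its day 21 mean (vertical axis, log2 CPM) in day 21 replicates 1, 2 and 3 (horizontal axes) for the measured genes of 6 lists, 1 line per gene. Replicate 2 is the highest library for all 22 proximal tubule and all 13 mitochondrial genes and the lowest for all 20 tubular injury genes, while replicate 3 is the highest for 12 of 13 adipose genes.

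Day 21 replicates 1 and 3, close over most genes, differed in fat, blood and structural RNAs. An SD over 1 between them was found for 398 genes (2.01%), of which 210 were higher in replicate 1 and 188 in replicate 3. Cfd had an SD of 5.34 between them, and Adipoq 4.51, with replicate 3 high. Hba-a1 had an SD of 3.84, with replicate 1 high. Fat and red cell genes, which separated day 14 replicate 3 from its group, thus also separated these libraries, while urothelial and muscle genes had median SDs of 0.221 and 0.298 between them.

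The structural RNAs were chosen after their values were seen. Rn18s, the 18S ribosomal RNA, took 3.18% of the counts of day 21 replicate 1, and 0.129% and 0.184% of those of replicates 2 and 3. It took 0.103% to 0.28% in the libraries of the other groups. The 7SK RNA (ENSMUSG00002076161), a regulator of transcription elongation, had 96 CPM in replicate 1, 1.12 in replicate 2 and 6.06 in replicate 3 (SD 3.21), and Rmrp and Rpph1, the RNAs of RNase MRP and RNase P, had SDs of 3.07 and 3.47. None of these RNAs carries a regular poly(A) tail. Protein-coding genes went with them: Camk1d, a calcium-dependent kinase, had 356, 23.6 and 18.3 CPM (SD 2.37). Lars2, a mitochondrial tRNA synthetase, had an SD of 2.17. The cause was not tested.

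Some abundant genes barely varied in any group. Supt16, a histone chaperone subunit, Gars, the glycyl-tRNA synthetase, Prkar1a, the regulatory subunit of protein kinase A, and Nptn, a cell adhesion protein, had SDs of 0.04 or less in all 4 groups, day 21 replicate 2 included. Nptn had 99.7, 100 and 102 CPM in controls, 104, 99.3 and 103 CPM at day 5, 105, 104 and 99.6 CPM at day 14, and 105, 99.1 and 103 CPM at day 21. Over all 12 libraries its level thus lay between 99.1 and 105 CPM. These genes were picked as the steadiest, so their small SDs follow from the choice. In controls and at days 5, 14 and 21, Supt16 had SDs of 0.03, 0.03, 0.02 and 0.03. Its Poisson SDs were 0.038, 0.033, 0.03 and 0.035. Prkar1a had SDs of 0.04, 0.03, 0.03 and 0.02, against Poisson SDs of 0.018, 0.017, 0.015 and 0.016.

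Whether spreads differed between groups was tested for each gene with limma on absolute deviations from the group mean, with Benjamini-Hochberg adjustment. Day 21 was wider than control for 4024 genes (20.3%) and narrower for 117 (0.59%), and wider than day 14 for 5895 (29.7%) and narrower for 149 (0.752%). Proximal tubule genes were called wider at day 21 than in controls for 20 of 22, mitochondrial genes for 13 of 13, male-higher kidney genes for 10 of 12 and tubular injury genes for 9 of 20. Adipose genes, which varied in every group, were called for 0 of 13. A moderated variance-ratio test, which sets the variance of 1 group over that of the other, called 20, 8, 10 and 10 of these lists' genes wider, and 1 adipose gene. Day 5 and day 14 differed from control for 0 genes by this test, with 1243 and 1706 genes at an unadjusted p under 0.05, and the variance-ratio test called 6 (2 wider, 0.0101%, and 4 narrower, 0.0202%) and 0. With no filter on low counts the limma test called 2951 and 3055 genes.

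These calls depended on which groups were fitted together and on few libraries. The limma test called 0 genes for day 21 against control when only the 6 libraries compared were fitted. It also called 0 when a day 5 or day 14 library was left out. A group left with 2 libraries has 2 equal deviations, which were entered once, so it added nothing to the test's error estimate. Leaving out any library of such a group thus acted as leaving out the whole group. The variance-ratio test called 2446 genes for day 21 against control, 2440 of them wider (12.3%) and 6 narrower (0.0303%), and 2129 genes were called by both tests. Without day 21 replicate 2 it called 10, of which 5 were wider (0.0252%), and it called 0 proximal tubule, mitochondrial, male-higher and tubular injury genes wider. It called 0 without control replicate 1 and 65 without control replicate 3. For day 21 against day 14 it called 6573 genes with all libraries, of which 6551 were wider (33.1%) and 22 narrower (0.111%), and 21 without day 21 replicate 2.

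Taken per library, the median distance from the group mean was 0.2311 ± 0.06177 at day 21 and 0.09232 ± 0.009496 in controls (SD, n = 3 each). The groups did not overlap, and the exact two-sided permutation test gave p = 0.1, the smallest value that 3 libraries against 3 allow (adjusted p = 0.133 over 4 comparisons). The distance was 0.0658 ± 0.01331 at day 14, below that of all controls (exact permutation p = 0.1, adjusted p = 0.133), and 0.07731 ± 0.005833 at day 5 (exact permutation p = 0.2). Each distance is taken from a mean that the library helps set, so the 3 distances of a group are not independent, and day 21 replicate 2, at 0.3024, also enters those of replicates 1 and 3, at 0.1931 and 0.1979. Without it, the median SD of the pair left was 0.1671, against 0.09918 to 0.1226 for the control pairs. The replicates are described as biological in the series design.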

How the data were processed

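The authors deposited raw counts of reads per gene for 12 libraries. Per the submitters' processing notes, fastp 0.20.0, featureCounts and GRCm39 were used; the aligner, annotation release, strand setting and treatment of multi-mapping reads are not stated in the sources used. Columns were matched to samples by library name. The members and gene lists were chosen with earlier results of these data known. Counts of list members that were highest or lowest in a library are given without the share over all genes. Genes were kept by filterByExpr of edgeR 4.0.16 (R 4.3.3), scaled by TMM and expressed as log2 CPM with a prior count of 2. The 2803 genes without a symbol held 2.14% of counts and were not named. Spread tests used limma 3.58.1 on absolute deviations over all 12 libraries, called at an adjusted p under 0.05. On simulated counts this test called nothing when few genes were widened, so a moderated variance-ratio test was added after the data were seen.

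Named genes were, among symbols other than predicted ones and averaging a log2 CPM of at least 1, the 10 with the largest SD per group, the 10 most variable in every group, the 10 most different between day 21 replicates 1 and 3, the 10 steadiest with a mean of at least 5, and 2 per list. Not all are printed. Further list members, predicted genes and structural RNAs were picked after their values were seen. Replicate numbers did not pair samples: deviations of same-numbered libraries correlated between -0.14 and 0.171. No libraries were identical. Alternatives included DESeq2 1.42.0 size factors and variance-stabilised values. Reads carry no molecular identifiers. Figures were drawn with matplotlib.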

Additional observations from a re-analysis of the deposited data

How the results depend on the processing

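Counts of genes with an SD over 1 in controls and at days 5 and 14 were 643, 489 and 462 with a prior count of 0.5, 126, 105 and 179 with a CPM of at least 1 in 3 libraries, and 488, 357 and 502 with no filter. They were 44, 46, 89 and, at day 21, 680 on variance-stabilised values, and 176 in controls with counting variance subtracted. At an SD threshold of 0.5, chosen after seeing the data, they were 2007, 1609, 1471 and 6253 in controls and at days 5, 14 and 21. Leaving out 1 library gave 330 to 400, 221 to 315, 145 to 518 and 398 to 2538. Median SDs in controls and at day 5 were 0.1178 and 0.09694 with the CPM filter and 0.1144 and 0.09526 on variance-stabilised values. In controls and at days 5 and 14 they were 0.161, 0.1481 and 0.1437 with no filter, and 0.07507, 0.05462 and 0.0445 with counting variance subtracted. Leaving out 1 library, they were 0.09918 to 0.1226, 0.0848 to 0.1036, 0.06099 to 0.09519 and 0.1671 to 0.333. Day 21 had the largest median under each scale and filter tried.

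Genes called for spread, day 21 against control and day 21 against day 14, were 6950 and 9123 with library totals alone, 8933 and 10068 with no filter (and 2951 and 3055 for days 5 and 14 against control), 0 and 0 with squared deviations, and 0 and 0 with only the 6 libraries compared. The variance-ratio test called 6 for day 5 and 2446 for day 21 against control. Without 1 library the limma test called 3190 (any control) or 2651 (any day 5 library) for day 21 against day 14. Such a fit acted as leaving out the whole group of that library. The variance-ratio test called 1628 and 65 for day 21 against control without control replicates 2 and 3, and 3519 and 1448 for day 21 against day 14 without day 14 replicates 1 and 2. Leaving out 1 library, over both tests, gave 0 to 10 for day 5, 0 to 3 for day 14, 0 to 3170 for day 21 against control and 21 to 8938 for day 21 against day 14. The replicate block, which the pairing check did not call for, gave 3284 and 5059. The limma test was not run with 2 libraries in a compared group, where both deviations are equal. With 3 libraries an SD is a rough value, and the cause of these changes was not tested. The SDs of 63 named gene and group pairs moved by less than 0.5 times their size with a prior count of 0.5, median-of-ratios factors or library totals, and 43 of 189 moved by more when 1 library was left out.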
